A study of Mus musculus with 24 samples.

Results

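Corpus callosum RNA from mice given both cuprizone and a BTK inhibitor (cuprizone BTKi, 8 libraries) was set against corpus callosum RNA from healthy mice given vehicle (naive vehicle, 4 libraries). These are 12 of the 24 libraries of the study, chosen by their labels and by no measured value, and all genes were used. The cuprizone BTKi mice had received cuprizone and then, after disease induction, the inhibitor. The naive vehicle mice had received neither, so in this comparison the cuprizone and the inhibitor cannot be told apart. The 8 cuprizone vehicle libraries (cuprizone without the inhibitor) and the 4 naive BTKi libraries (the inhibitor without cuprizone) are used only to place values beside it. The sources used here name no strain, sex, age, compound, dose or duration. Nothing in the labels states that each library is a separate mouse, and the p-values therefore reflect only how these samples scatter, part of which may be technical.

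Cuprizone is a copper-binding compound that, fed to mice, damages mature oligodendrocytes, and the corpus callosum, the large commissure of myelinated axons between the hemispheres, loses much of its myelin. Microglia take up the myelin debris, astrocytes become reactive, and oligodendrocyte precursors divide and can rebuild the sheaths. BTK (Bruton's tyrosine kinase) carries signals from the B cell receptor in B cells and from Fc receptors in myeloid cells, among them microglia. Whole tissue was sequenced, so fewer cells of a type and less RNA per cell cannot be told apart in any value given here.

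The deposited values are FPKM, that is, fragment counts corrected for gene length and for the total fragments of a library. The spacing of the low values gave an estimated 2.65e+07 fragments for cuprizone BTKi 5 and 2.98e+07 to 3.10e+07 for the other libraries. Genes at 0.5 FPKM or more numbered 15193 ± 73.4 in cuprizone BTKi and 15150 ± 82.5 in naive vehicle (SD, n = 8 and 4; two-sided exact permutation p = 0.358, adjusted over 4 library measures 0.633). The percent of FPKM in mitochondrial genes was 12.3 ± 0.723 in cuprizone BTKi and 12.4 ± 0.295 in naive vehicle (exact permutation, adjusted p = 0.776). The 10 top genes held 23.9 ± 1.15% in cuprizone BTKi and 24.4 ± 0.613% in naive vehicle (exact permutation, adjusted p = 0.633), and haemoglobin genes 0.0301 ± 0.0241% and 0.0132 ± 0.00616% (exact permutation, adjusted p = 0.633). The library naive vehicle 2 stood apart from the other 3 of its group: it had the highest sum of 36 myelin genes (6657 FPKM, the other 3 between 4813 and 5075) and of 11 markers of striatal neurons (801 FPKM, the others between 292 and 467). It also had the lowest sum of 13 hippocampal and cortical markers (1393 FPKM, the others between 1921 and 2100.3). Without it the counts of called genes changed in 33 of the 46 gene lists, by 1 call in 20 of them, and both counts are given for the 13 lists in which 2 or more calls changed. All groups expressed the defining genes of myelin, as a corpus callosum sample should, and Mbp lay at 612 FPKM or more in each of the 24 libraries.

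Differences were tested with limma, a linear model fitted to log2(FPKM + 0.5), and a gene is called where the p adjusted over all genes is under 0.05. The call was made for 2204 of 15216 genes (14.5%). Of these 1344 (8.83%) were higher and 860 (5.65%) lower in cuprizone BTKi. The log2 difference reached 1 in size, a 2-fold change, for 145 of the genes called higher (0.953% of those tested) and for 56 of those called lower (0.368%). The median log2 difference over all genes tested was 0.008. For 895 genes (5.88%) the lowest cuprizone BTKi library lay above the highest naive vehicle library, and for 466 genes (3.06%) the highest lay below the lowest. Without naive vehicle 2 the count of called genes was 1784, 1172 higher and 612 lower. In cuprizone vehicle against the same 4 naive vehicle libraries, 2288 genes (15%) were called, 1555 higher (10.2%) and 733 lower (4.82%), and the median over all genes was 0.029. Median ratio scaling gave 1229 higher and 978 lower there, and quantile normalization 1205 and 1072. That comparison shares its controls with the one described here, so the values of both are given side by side and nothing is read from their likeness. The difference between the 2 cuprizone groups was tested directly: 27 genes were called (0.177%), 6 higher (0.0394%) and 21 lower (0.138%) in cuprizone BTKi, and 1338 (8.79%) had an unadjusted p under 0.05. The 2 scalings gave 6 higher and 15 lower, and 8 higher and 13 lower, in that test.

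**Figure D1:**
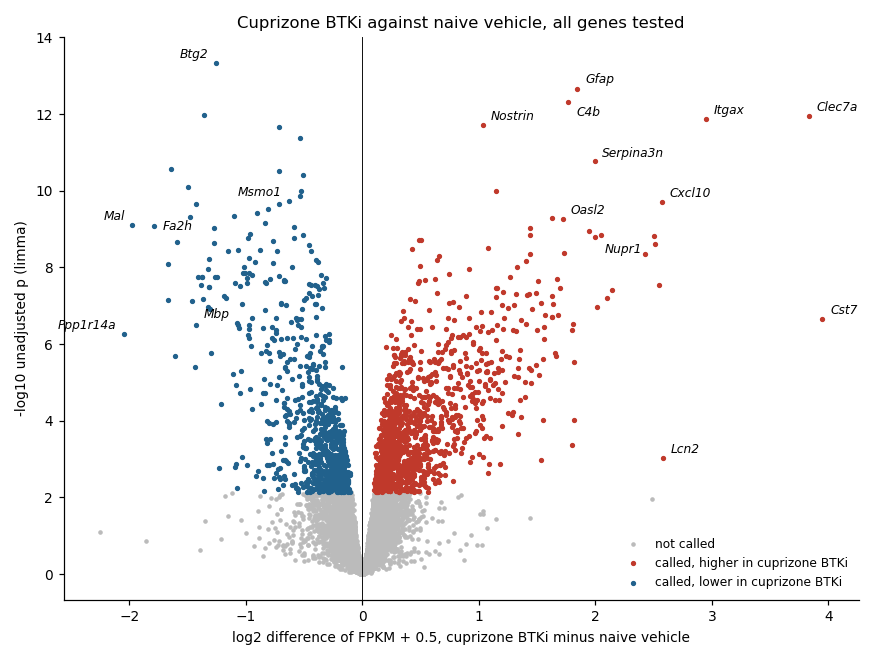
Each point is 1 of the 15216 genes tested. The x axis is the log2 difference of FPKM + 0.5 (cuprizone BTKi minus naive vehicle), the y axis the -log10 of the unadjusted limma p, and colours mark the 1344 genes called higher and 860 called lower. Clec7a, Itgax, C4b and Gfap lie far up on the right, and Btg2 and the myelin genes Mal and Fa2h on the left.

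Genes of myelin fell in cuprizone BTKi. Of 36 listed genes of myelin and mature oligodendrocytes, 36 were measurable and 33 were lower and 0 higher in cuprizone BTKi, with a median log2 difference of -1.03 against 0.008 for all genes tested. The 3 that did not pass were Mal2, Apod and Trf. On leaving out each library in turn, 32 or 33 of the 36 were lower. Their sum ran from 2035 to 3940 FPKM (median 2543) in cuprizone BTKi, against 4813 to 6657 FPKM (median 4973) in naive vehicle, and lay between 4228 and 4298 FPKM in naive BTKi. In cuprizone vehicle against naive vehicle the same list had 33 lower and a median of -1.23. In the direct limma test of cuprizone BTKi against cuprizone vehicle 0 of the 36 were called (2 at an unadjusted p under 0.05, both higher), with a median of 0.12. In naive BTKi against naive vehicle limma also called 0 (9 lower and 0 higher at an unadjusted p under 0.05). Their median was -0.29. Of all genes tested 12.6% had an unadjusted p under 0.05 there, and 8.79% in the direct test.

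Mbp, the basic protein that holds the cytoplasmic faces of compact myelin together, ran from 709 to 1486 FPKM (median 908) in cuprizone BTKi, against 1876, 2522, 1823 and 1757 FPKM in naive vehicle. The groups did not overlap (log2 difference -1.07, SE 0.15, limma adjusted p = 2.21e-05). The naive vehicle 2 library was the highest of its group, and cuprizone BTKi 4 the highest of the other. Mal, a raft protein of compact myelin (ENSMUSG00000027375.14, chromosome 2, 127633226 to 127656695, minus strand), ran from 20.8 to 58.4 FPKM (median 31.9) in cuprizone BTKi, against 139, 155, 121 and 125 FPKM in naive vehicle, so that its highest cuprizone BTKi library reached less than the lowest naive library (log2 difference -1.97, SE 0.20, limma adjusted p = 4.02e-07). Ppp1r14a, an inhibitor of myosin phosphatase, had the largest difference of the list and ran from 1.93 to 9.08 FPKM (median 3.50) in cuprizone BTKi, against 17.4, 23.1, 17.8 and 17.9 FPKM in naive vehicle (log2 difference -2.04, SE 0.30, limma adjusted p = 3.71e-05). Fa2h, the hydroxylase that supplies the 2-hydroxy fatty acids of myelin galactolipids, averaged 8.42 ± 2.62 FPKM in cuprizone BTKi and 29.6 ± 5.73 FPKM in naive vehicle (SD, n = 8 and 4; log2 difference -1.79, SE 0.19, limma adjusted p = 4.10e-07).

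Other myelin and oligodendrocyte genes among the largest losses were Mog, a surface glycoprotein of the outermost lamella (17.6 ± 7.44 FPKM in cuprizone BTKi, 45.5 ± 7.27 FPKM in naive vehicle, log2 difference -1.44), and Opalin, a membrane protein of the mature oligodendrocyte (6.41 ± 2.11 FPKM and 19.8 ± 3.81 FPKM, -1.59). Aspa, which splits N-acetylaspartate into acetate and aspartate, averaged 4.88 ± 1.42 FPKM in cuprizone BTKi and 13.4 ± 3.13 FPKM in naive vehicle (-1.38). Anln, an actin-binding scaffold of the septin filaments of myelin, averaged 4.05 ± 0.932 FPKM in cuprizone BTKi and 12.3 ± 2.76 FPKM in naive vehicle (-1.498). Their limma adjusted p-values were 1.67e-04, 7.23e-07, 3.95e-06 and 8.51e-08, in that order. Prr18 (-1.43, adjusted p = 1.63e-07), Adamtsl4 (-1.48, 3.01e-07) and Serpinb1a (-1.43, 2.43e-05) were among the 12 protein-coding genes with the largest losses without being on the list. Adamts4, a metalloprotease of oligodendrocytes, fell as well (3.52 ± 0.767 FPKM in cuprizone BTKi, 8.42 ± 1.73 FPKM in naive vehicle; log2 difference -1.15, SE 0.13, limma adjusted p = 1.01e-06).

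Among genes of the earlier stages of the lineage the share called was near that of all genes (14.5%). Of 12 measurable genes of newly formed oligodendrocytes 2 were lower and 0 higher (0 and 0 without naive vehicle 2), with a median log2 difference of 0.058. Enpp6, a choline phosphodiesterase that marks oligodendrocytes at the start of myelination, ran from 2.03 to 3.28 FPKM (median 2.25) in cuprizone BTKi, against 3.44, 5.54, 3.30 and 3.30 FPKM in naive vehicle (log2 difference -0.54, SE 0.14, limma adjusted p = 0.00858), but without naive vehicle 2 its adjusted p was 0.0726. Nfasc, the neurofascin of nodes and paranodes, differed by -0.20 (limma adjusted p = 0.0161, and 0.0971 without naive vehicle 2). Bcas1, a marker of the myelinating stage, lay from 123 to 188 FPKM (median 147) in cuprizone BTKi and at 134, 160.0, 117 and 106 FPKM in naive vehicle, which overlap (log2 difference 0.22, SE 0.12, limma adjusted p = 0.252). Of 15 precursor genes 2 were higher and 1 lower (2 and 0 without naive vehicle 2). Pdgfra, the PDGF receptor that defines precursors, lay from 6.17 to 7.14 FPKM (median 6.69) in cuprizone BTKi and at 6.30, 6.52, 6.41 and 6.30 FPKM in naive vehicle (log2 difference 0.062, SE 0.045, limma adjusted p = 0.407). Gpr37l1, a prosaposin receptor also found on astrocytes, and Ptprz1, a receptor phosphatase of precursors and astrocytes, rose by log2 differences of 0.28 (SE 0.061, limma adjusted p = 0.00212) and 0.18 (SE 0.041, limma adjusted p = 0.00301). Cacng4, an AMPA receptor auxiliary subunit, was lower (log2 difference -0.34, adjusted p = 0.0412), and the call ended without naive vehicle 2 or 3 or cuprizone BTKi 1, 3, 5, 6, 7 or 8 (adjusted p = 0.3004 without naive vehicle 2).

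**Figure D2:**
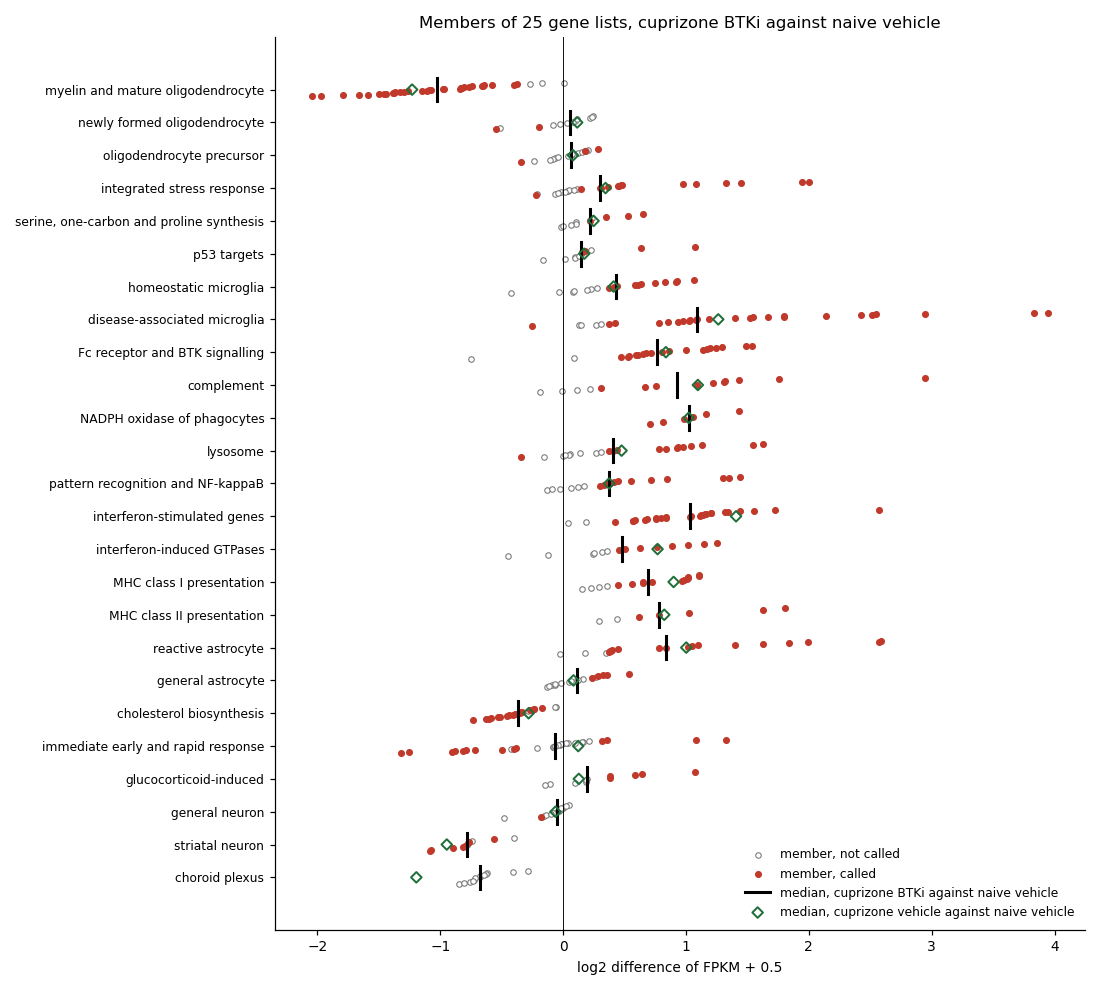
Members of 25 gene lists (rows) by their log2 difference of FPKM + 0.5 in cuprizone BTKi against naive vehicle (x axis); filled points passed an adjusted p of 0.05, open ones did not. The vertical bar is the median of the list, and the diamond is its median in cuprizone vehicle against the same naive vehicle libraries. Myelin, cholesterol synthesis, striatal and choroid plexus genes lie to the left of 0, and the microglial, interferon, MHC and reactive astrocyte lists to the right.

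Genes of the integrated stress response rose in part. This is the pathway in which phosphorylation of eIF2 slows translation while ATF4 is made and switches on its targets. Of 27 listed genes 25 were measurable, and 14 were higher and 1 lower, with a median of 0.30. Without naive vehicle 2 the counts were 13 and 0, so that the 1 lower call, of the lipoprotein receptor gene Vldlr (log2 difference -0.22, adjusted p = 0.0187, chosen after its value was seen), ended. Nupr1, a small stress-induced chromatin protein (ENSMUSG00000030717.9, chromosome 7, 126623249 to 126630861, minus strand), ran from 13.03 to 46.6 FPKM (median 26.4) in cuprizone BTKi, against 5.57, 5.54, 7.24 and 6.76 FPKM in naive vehicle (log2 difference 2.002, SE 0.22, limma adjusted p = 6.16e-07). Atf5, a transcription factor of the same response, ran from 32.1 to 86.4 FPKM (median 61.9) in cuprizone BTKi, against 16.5, 14.3, 12.7 and 14.5 FPKM in naive vehicle (log2 difference 1.94, SE 0.20, limma adjusted p = 4.95e-07). For both genes the lowest cuprizone BTKi library lay above the highest naive vehicle library. Gdf15, a stress-secreted hormone of the TGF-beta family, averaged 1.47 ± 0.722 FPKM in cuprizone BTKi and 0.168 ± 0.0509 FPKM in naive vehicle (log2 difference 1.45, SE 0.26, limma adjusted p = 3.66e-04). Atf3 (ENSMUSG00000026628.13, chromosome 1, 191170296 to 191218039, minus strand), a repressor of the same family of factors, averaged 2.11 ± 0.5255 FPKM and 0.539 ± 0.219 FPKM (log2 difference 1.33, SE 0.16, limma adjusted p = 2.01e-06). Ddit3, the factor CHOP, rose by 0.46 (limma adjusted p = 0.00162). Chac1, a glutathione-degrading target of ATF4 and CHOP, lay from 2.73 to 5.31 FPKM (median 3.44) in cuprizone BTKi and at 3.99, 2.95, 3.76 and 3.78 FPKM in naive vehicle (log2 difference -0.016, SE 0.13, limma adjusted p = 0.957). Atf4 itself differed by 0.14 (limma adjusted p = 0.0318), a call that ended without naive vehicle 2, 3 or 4 or cuprizone BTKi 2 or 6 (adjusted p = 0.151 without naive vehicle 2).

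The promoters of the 2 stress genes called with the smallest p that hold a C/EBP-ATF element are shown because that element is the one through which ATF4 and its partners bind these targets. The windows run from 250 bases before to 50 after the RefSeq start (GRCm38.p6), 5′ to 3′ along the gene, with the match to TGATGNAA, on either strand, in capitals. The Nupr1 window is chr7:126625421-126625720 on the minus strand and the Atf3 window chr1:191183284-191183583 on the minus strand.
Nupr1: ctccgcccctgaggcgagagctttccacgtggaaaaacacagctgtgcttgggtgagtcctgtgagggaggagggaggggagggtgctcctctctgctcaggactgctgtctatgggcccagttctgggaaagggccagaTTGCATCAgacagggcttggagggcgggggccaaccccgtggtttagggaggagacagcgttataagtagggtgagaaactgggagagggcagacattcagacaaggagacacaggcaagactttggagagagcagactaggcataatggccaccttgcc
Atf3: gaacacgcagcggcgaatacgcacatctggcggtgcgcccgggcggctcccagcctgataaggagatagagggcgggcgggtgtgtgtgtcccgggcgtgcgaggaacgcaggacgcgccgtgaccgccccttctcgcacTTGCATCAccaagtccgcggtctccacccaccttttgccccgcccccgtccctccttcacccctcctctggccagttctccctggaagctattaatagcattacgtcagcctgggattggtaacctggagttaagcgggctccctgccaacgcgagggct
In both windows the match lies on the strand opposite to the gene and begins, read along the gene, 110 bases before the start. Of 26 windows of 23 matched list genes, 10 (38.5%) held the element, against 3.97% of all 32851 windows. Of the 14 called members with a window, 5 held it. A match describes letters and does not show binding.

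Of 11 genes of serine, one-carbon and proline synthesis, which supply precursors for glycine, nucleotides and proline, 4 were higher. Over all genes tested 8.83% were higher and 5.65% lower, to be set beside each list count of this paragraph. Aldh1l2, the mitochondrial formyltetrahydrofolate dehydrogenase, ran from 1.101 to 1.63 FPKM (median 1.43) in cuprizone BTKi, against 0.577, 0.762, 0.667 and 0.792 FPKM in naive vehicle (log2 difference 0.65, SE 0.10, limma adjusted p = 8.95e-05). Mthfd2, a mitochondrial folate enzyme, rose by 0.53 (limma adjusted p = 0.00109) and Aldh18a1, which makes the proline precursor, by 0.35 (limma adjusted p = 0.00337). Psph, the last enzyme of serine synthesis, was higher by 0.22 (adjusted p = 0.0271), a call that ended without naive vehicle 2 or 3 or cuprizone BTKi 8. Slc7a11, the cystine carrier that feeds glutathione synthesis, averaged 7.34 ± 1.17 FPKM in cuprizone BTKi and 3.47 ± 0.666 FPKM in naive vehicle (log2 difference 0.98, SE 0.14, limma adjusted p = 2.76e-05), and Hmox1, the haem oxygenase, 6.70 ± 1.90 FPKM and 2.82 ± 0.432 FPKM (log2 difference 1.08, SE 0.18, limma adjusted p = 1.41e-04). These were the 2 of 12 measurable NRF2 targets called higher. G6pdx, which supplies NADPH, was lower (log2 difference -0.18, limma adjusted p = 0.0335), a call that ended without naive vehicle 2 or 4 or cuprizone BTKi 3, 5 or 8. Among 12 measurable p53 targets 4 were higher (2 without naive vehicle 2). Cdkn1a, the cell cycle inhibitor p21, ran from 11.4 to 20.8 FPKM (median 18.7) in cuprizone BTKi, against 9.14, 5.72, 7.59 and 8.80 FPKM in naive vehicle (log2 difference 1.08, SE 0.16, limma adjusted p = 3.31e-05), and the death receptor gene Fas rose by 0.63 (limma adjusted p = 3.32e-04). Bax, a pore-forming death factor, and Sesn1, a sestrin, differed by 0.18 and 0.15 (adjusted p 0.0453 and 0.0105), and without naive vehicle 2 the adjusted p was 0.119 for Bax and 0.0629 for Sesn1. Of 11 metallothionein and copper genes 1 was called, Cp, the copper ferroxidase ceruloplasmin (0.40, limma adjusted p = 0.0130, and 0.0885 without naive vehicle 1).

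Microglial genes rose, those of the activated, phagocytic state among them. Of 30 listed genes of disease-associated microglia (the lipid-handling state described around damaged myelin and plaques), 29 were measurable, 24 were higher and 1 lower (22 and 1 without naive vehicle 2), with a median log2 difference of 1.09. Clec7a, the beta-glucan receptor dectin-1 and a defining gene of that state (ENSMUSG00000079293.11, chromosome 6, 129461591 to 129472779, minus strand), ran from 6.54 to 13.97 FPKM (median 9.28) in cuprizone BTKi, against 0.228, 0.174, 0.189 and 0.193 FPKM in naive vehicle (log2 difference 3.83, SE 0.29, limma adjusted p = 3.34e-09). Itgax, the integrin alpha chain CD11c (ENSMUSG00000030789.9, chromosome 7, 128129547 to 128150657, plus strand), ran from 2.85 to 6.29 FPKM (median 3.65) in cuprizone BTKi, against 0.0663, 0.106, 0.0414 and 0.0850 FPKM in naive vehicle (log2 difference 2.95, SE 0.22, limma adjusted p = 3.34e-09). Both genes were near 0 in the naive vehicle libraries, and none of the 8 cuprizone BTKi libraries overlapped with them. Cst7, the cysteine protease inhibitor cystatin F, ran from 3.21 to 32.0 FPKM (median 10.1) in cuprizone BTKi, against 0.170, 0.168, 0.0679 and 0.134 FPKM in naive vehicle (log2 difference 3.95, SE 0.56, limma adjusted p = 1.83e-05), with its highest value in cuprizone BTKi 8. Spp1, the secreted phosphoprotein osteopontin, ran from 10.6 to 58.0 FPKM (median 15.7) in cuprizone BTKi, with its highest value in cuprizone BTKi 8, against 3.66, 6.84, 4.94 and 4.00 FPKM in naive vehicle (log2 difference 1.80, SE 0.44, limma adjusted p = 0.00613).

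Trem2, the lipid-sensing receptor needed for the activated state, averaged 21.7 ± 8.28 FPKM in cuprizone BTKi and 6.87 ± 0.583 FPKM in naive vehicle (log2 difference 1.52, SE 0.27, limma adjusted p = 2.44e-04). Apoe, the lipoprotein that carries cholesterol between glia, averaged 1842 ± 357 FPKM in cuprizone BTKi and 897 ± 109.7 FPKM in naive vehicle (log2 difference 1.02, SE 0.15, limma adjusted p = 2.59e-05). The leukocyte glycoprotein gene Cd52 (2.55), the chemokine gene Ccl6 (2.51), the lysozyme gene Lyz2 (2.43), the inhibitory receptor gene Lilrb4a (2.14) and the pore-forming Mpeg1 (2.02) were among the 12 largest rises. Their limma adjusted p-values were 4.02e-06, 7.56e-07, 1.15e-06, 4.80e-06 and 1.03e-05, in that order, and reads of Lilrb4a may be shared with a near copy. The 1 member called lower was Fth1, the ferritin heavy chain (-0.25, adjusted p = 0.00551), and after quantile normalization its adjusted p was 0.835.

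Homeostatic microglial genes had smaller differences. Of 18 listed, 11 were higher and 0 lower, with a median of 0.43. Their sum ran from 1411 to 1895 FPKM (median 1493) in cuprizone BTKi, highest in cuprizone BTKi 8, and from 1048 to 1282 FPKM (median 1094) in naive vehicle. Csf1r, the receptor on which microglia depend for survival, averaged 39.7 ± 5.98 FPKM in cuprizone BTKi and 20.7 ± 2.60 FPKM in naive vehicle (log2 difference 0.92, SE 0.14, limma adjusted p = 3.79e-05). Tgfbr1, a TGF-beta receptor chain, rose by 0.83 (limma adjusted p = 1.04e-05) and Fcrls by 1.06 (0.00390). P2ry12, the purinergic receptor of resting microglial processes, lay from 18.8 to 24.7 FPKM (median 20.2) in cuprizone BTKi and at 20.53, 19.2, 21.7 and 17.7 FPKM in naive vehicle, which overlap (log2 difference 0.082, SE 0.072, limma adjusted p = 0.503). Tmem119, another marker of resident microglia, lay from 5.41 to 9.18 FPKM (median 7.21) in cuprizone BTKi and at 7.92, 5.87, 6.30 and 5.97 FPKM in naive vehicle (log2 difference 0.091, SE 0.12, limma adjusted p = 0.672).

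The kinase that the inhibitor targets and its partners were higher in cuprizone BTKi. Of 20 listed genes of Fc receptor and BTK signalling 18 were higher and 0 lower (17 or 18 without any 1 library), with a median of 0.76. The 1 member with a negative difference was the kinase gene Prkcd (log2 difference -0.75, adjusted p = 0.215). The summed level of the list ran from 96.0 to 175 FPKM in cuprizone BTKi and was 68.5, 174, 70.0 and 71.5 FPKM in naive vehicle. Naive vehicle 2 thus lay above 7 of the 8 cuprizone BTKi libraries. Its excess does not lie in Btk, Fcgr3, Fcgr2b or Fcer1g, whose naive vehicle levels are given below. Which member of the list holds it was not tested. Btk (ENSMUSG00000031264.13, chromosome X, 134542336 to 134583570, minus strand) ran from 0.535 to 1.16 FPKM (median 0.726) in cuprizone BTKi, against 0.356, 0.351, 0.356 and 0.272 FPKM in naive vehicle (log2 difference 0.61, SE 0.15, limma adjusted p = 0.00785), a difference that the added 0.5 makes smaller at such low values. In cuprizone vehicle against naive vehicle it was 0.80, and cuprizone BTKi minus cuprizone vehicle was -0.19 (SE 0.13, adjusted p = 0.705). Syk, the kinase upstream of BTK, rose by 0.47 (limma adjusted p = 0.0101, and 0.0632 without naive vehicle 2). Among the receptors, Fcgr3 averaged 22.3 ± 6.06 FPKM in cuprizone BTKi and 7.20 ± 0.887 FPKM in naive vehicle (1.54, adjusted p = 8.76e-06), the inhibitory Fcgr2b 6.25 ± 1.78 FPKM and 1.86 ± 0.406 FPKM (1.49, 1.53e-04), and Fcer1g, the shared signalling chain, 33.1 ± 9.43 FPKM and 13.3 ± 1.80 FPKM (1.25, 0.00144). Lat2, a myeloid adaptor, rose by 1.29 (limma adjusted p = 3.08e-05).

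Complement genes rose in cuprizone BTKi. Of 16 listed 14 were measurable and 10 were higher, with a median of 0.92 (8 higher without naive vehicle 2). C4b, the component cleaved at the first step of the classical cascade (ENSMUSG00000073418.4, chromosome 17, 34728380 to 34743882, minus strand), ran from 17.4 to 26.5 FPKM (median 19.8) in cuprizone BTKi, against 6.13, 6.36, 5.65 and 4.75 FPKM in naive vehicle (log2 difference 1.76, SE 0.13, limma adjusted p = 2.49e-09). C1qa, a chain of the initiating C1q complex, ran from 47.4 to 123 FPKM (median 62.3) in cuprizone BTKi, against 28.3, 24.1, 24.9 and 22.8 FPKM in naive vehicle (log2 difference 1.43, SE 0.24, limma adjusted p = 1.79e-04). C3, the central component, averaged 1.58 ± 0.707 FPKM in cuprizone BTKi and 0.441 ± 0.188 FPKM in naive vehicle (log2 difference 1.09, SE 0.26, limma adjusted p = 0.00430), and C3ar1, its anaphylatoxin receptor, 1.95 ± 0.396 FPKM and 0.469 ± 0.0535 FPKM (log2 difference 1.32, SE 0.17, limma adjusted p = 5.93e-06). For these 4 genes the groups did not overlap.

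The 6 listed subunits of the phagocyte NADPH oxidase, the enzyme that makes superoxide, were all called higher, with a median of 1.02. Beside each list count of this paragraph, 8.83% of all genes tested were higher and 5.65% lower. Cybb, its catalytic subunit, averaged 1.23 ± 0.274 FPKM in cuprizone BTKi and 0.137 ± 0.0567 FPKM in naive vehicle (log2 difference 1.43, SE 0.18, limma adjusted p = 5.86e-06). The membrane partner Cyba rose by 1.16 and the GTPase Rac2 by 0.99 (adjusted p 2.11e-04 and 0.00196). Of 21 measurable lysosomal genes 12 were higher and 1 lower. Ctss, a cathepsin of antigen-presenting cells, averaged 104 ± 24.5 FPKM in cuprizone BTKi and 32.4 ± 0.900 FPKM in naive vehicle (log2 difference 1.63, SE 0.21, limma adjusted p = 6.41e-06). The phagocyte membrane protein Cd68 rose by 1.55 (adjusted p = 1.19e-04), the cathepsin Ctsh by 1.13 (2.19e-04) and Laptm5 by 1.04 (8.13e-04). Npc1, which exports cholesterol from lysosomes, was the member called lower (-0.34, 6.76e-05, named after its value was seen). Of 11 measurable phagocytic receptors and ligands 4 were higher and 0 lower (3 and 1 without naive vehicle 2): the TAM receptor genes Axl (0.78, 1.72e-04) and Mertk (0.37, 4.73e-04), their bridging ligand Pros1 (0.79, 1.98e-05) and Stab1 (0.46, 0.0123, and 0.0690 without naive vehicle 2). Of 19 measurable genes of pattern recognition and NF-kappaB 13 were higher, led by Cd14, the lipopolysaccharide co-receptor (3.83 ± 0.764 FPKM in cuprizone BTKi, 1.08 ± 0.152 FPKM in naive vehicle; log2 difference 1.44, SE 0.15, limma adjusted p = 5.74e-07), and by the Toll-like receptors Tlr2 (1.35), Tlr7 (1.298) and Tlr1 (0.85).

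**Figure D3:**
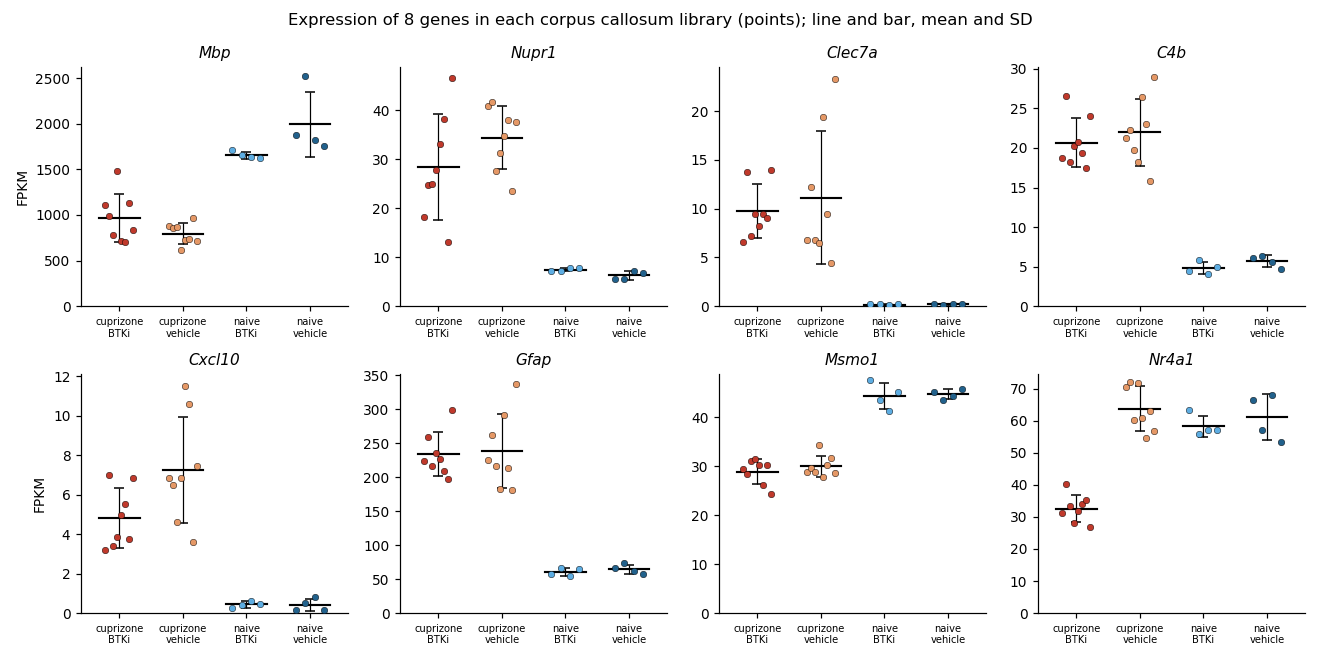
FPKM of 8 genes (panels; linear y axes from 0) in each library, by group; lines and bars are the mean and SD of 8, 8, 4 and 4 libraries. In cuprizone BTKi, Mbp lay at 709 to 1486 FPKM, against 1757 to 2522 FPKM in naive vehicle, and Gfap at 197 to 299 FPKM, against 57.5 to 73.0 FPKM. Nr4a1 was low in cuprizone BTKi alone among the 4 groups.

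Interferon-stimulated genes rose together. Of 29 listed, 28 were measurable, and 26 were higher and 0 lower (25 or 26 without any 1 library), with a median log2 difference of 1.03. In cuprizone vehicle against naive vehicle 27 were higher and the median was 1.41. In the direct limma test of cuprizone BTKi against cuprizone vehicle 0 of the 28 were called, but 18 were lower and 0 higher at an unadjusted p under 0.05, which 8.79% of all genes reached in either direction. Their median there was -0.30, beside -0.017 for all genes tested. Cxcl10, the interferon-induced ligand of CXCR3 (ENSMUSG00000034855.13, chromosome 5, 92346638 to 92348889, minus strand), ran from 3.18 to 6.98 FPKM (median 4.42) in cuprizone BTKi, against 0.153, 0.5003, 0.808 and 0.151 FPKM in naive vehicle (log2 difference 2.57, SE 0.25, limma adjusted p = 1.55e-07). Its difference was 3.09 in cuprizone vehicle against naive vehicle, and -0.51 (SE 0.20, limma adjusted p = 0.441) in cuprizone BTKi against cuprizone vehicle. Oasl2, a sensor-family protein of the antiviral response, ran from 6.40 to 11.6 FPKM (median 8.45) in cuprizone BTKi, against 2.23, 2.32, 2.24 and 2.06 FPKM in naive vehicle (log2 difference 1.73, SE 0.18, limma adjusted p = 3.01e-07). Ifit3, which binds viral RNA complexes (ENSMUSG00000074896.3, chromosome 19, 34583531 to 34588731, plus strand), ran from 14.6 to 23.4 FPKM (median 17.6) in cuprizone BTKi, against 6.89, 5.79, 6.45 and 5.87 FPKM in naive vehicle (log2 difference 1.44, SE 0.15, limma adjusted p = 4.23e-07), and reads shared with its near copy Ifit3b may add to it. The ubiquitin-like Isg15 averaged 4.56 ± 1.404 FPKM in cuprizone BTKi and 1.65 ± 0.323 FPKM in naive vehicle (log2 difference 1.20, SE 0.23, limma adjusted p = 5.92e-04), and Ifi27l2a 4.61 ± 1.63 FPKM and 1.26 ± 0.642 FPKM (log2 difference 1.55, SE 0.33, limma adjusted p = 0.00196). Ifi204, a DNA-sensing family member that was among the 12 largest rises, reached 2.10 (adjusted p = 7.20e-06), with near copies in its cluster.

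Promoters of the 2 genes of this list called with the smallest p that hold the core of the interferon-stimulated response element are shown with the match in capitals. The core searched is GAAA, any 2 bases, and GAAA again, on either strand (RefSeq, GRCm38.p6; same window, 5′ to 3′ along the gene). The Cxcl10 window is chr5:92348840-92349139 on the minus strand and the Ifit3 window chr19:34583279-34583578 on the plus strand.
Cxcl10: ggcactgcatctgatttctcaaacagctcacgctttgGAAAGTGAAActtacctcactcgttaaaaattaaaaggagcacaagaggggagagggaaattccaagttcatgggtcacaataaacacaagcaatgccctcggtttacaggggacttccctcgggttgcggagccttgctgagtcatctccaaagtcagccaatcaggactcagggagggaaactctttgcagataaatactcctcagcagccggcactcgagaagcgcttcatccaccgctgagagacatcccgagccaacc
Ifit3: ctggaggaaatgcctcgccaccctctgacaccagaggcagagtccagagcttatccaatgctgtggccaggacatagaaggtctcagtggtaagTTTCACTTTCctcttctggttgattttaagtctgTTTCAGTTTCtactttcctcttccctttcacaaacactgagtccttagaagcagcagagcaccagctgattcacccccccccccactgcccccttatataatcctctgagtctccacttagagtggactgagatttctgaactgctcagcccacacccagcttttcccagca
The Cxcl10 match begins 213 bases before the start, and the Ifit3 window holds 2 matches on the opposite strand, at 156 and 122 bases before it. Of 23 windows of 20 matched list genes, 15 (65.2%) held the motif, against 3.44% of the 32851 windows. Of 17 called members with a window, 12 held it.

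Interferon-induced GTPases, which attack the vacuoles of intracellular microbes, had 8 of 14 members higher and 0 lower, with a median of 0.48 and, in cuprizone vehicle, 0.77. In the direct limma test of cuprizone BTKi against cuprizone vehicle 0 of the 14 were called, with a median of -0.28. At an unadjusted p under 0.05, which 8.79% of all genes reached, 8 were lower and 0 higher. Gbp6 rose by 1.25, Gbp3 by 1.15, Gbp2 by 1.02 and Iigp1 by 0.89 (limma adjusted p 1.07e-05, 4.38e-06, 1.33e-05 and 1.60e-04), and reads of these clustered paralogues may be shared. Of 16 genes of MHC class I presentation 12 were higher (10 without naive vehicle 2), with a median of 0.69. B2m, the invariant light chain, ran from 129 to 234 FPKM (median 173) in cuprizone BTKi, against 93.7, 77.5, 82.7 and 96.2 FPKM in naive vehicle (log2 difference 1.01, SE 0.16, limma adjusted p = 8.15e-05). H2-D1, a classical heavy chain (ENSMUSG00000073411.11, chromosome 17, 35262730 to 35267499, plus strand), ran from 29.1 to 52.0 FPKM (median 36.5) in cuprizone BTKi, against 17.4, 16.8, 17.3 and 17.99 FPKM in naive vehicle (log2 difference 1.11, SE 0.15, limma adjusted p = 1.31e-05). H2-K1 and H2-Q6 rose by 1.01 and 1.01 (limma adjusted p 7.23e-05 and 0.00245), but the heavy chain genes are near copies whose values are uncertain one by one. Psmb8, an immunoproteasome subunit, rose by 1.11 (limma adjusted p = 1.38e-04). Of 7 measurable class II genes 5 were higher. Cd74, the invariant chain, averaged 15.1 ± 4.13 FPKM in cuprizone BTKi and 3.87 ± 0.751 FPKM in naive vehicle (log2 difference 1.81, SE 0.26, limma adjusted p = 2.41e-05), and H2-Aa 3.44 ± 0.909 FPKM and 1.41 ± 0.375 FPKM (log2 difference 1.03, SE 0.22, limma adjusted p = 0.00162). H2-Ab1 was higher by 0.78 (adjusted p = 0.0302), a call that ended without naive vehicle 2, 3 or 4 or cuprizone BTKi 8.

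Of 21 listed cytokines and chemokines 14 were measurable, 8 higher and 2 lower, where 8.83% of all genes were higher and 5.65% lower. Ccl3, a chemokine made by activated microglia, ran from 2.56 to 5.36 FPKM (median 4.30) in cuprizone BTKi, against 0.306, 0.388, 0.262 and 0.258 FPKM in naive vehicle (log2 difference 2.51, SE 0.27, limma adjusted p = 6.01e-07). Ccl4, its neighbour in the genome and close relative, ran from 1.14 to 3.48 FPKM (median 1.87) in cuprizone BTKi, against 0.152, 0.150, 0.101 and 0.0999 FPKM in naive vehicle (log2 difference 2.05, SE 0.22, limma adjusted p = 5.75e-07). Cxcl16, a transmembrane chemokine, rose by 1.64 (limma adjusted p = 9.10e-06). The 2 called lower were Il33, an alarmin of oligodendrocytes and astrocytes (-0.95, 1.80e-05), and the neuronal ligand Cx3cl1 (-0.16, 0.0336), both named after their values were seen. Ccl2, a monocyte attractant, did not reach the filter and was not tested. It lay from 0.0808 to 0.522 FPKM (median 0.316) in cuprizone BTKi and at 0.0412, 0.0813, 0.0412 and 0.0811 FPKM in naive vehicle.

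Reactive astrocyte genes rose. Of 21 listed 19 were measurable, and 16 were higher and 0 lower, with a median of 0.84. Cxcl10 and Lcn2 are members of this list and also of others. Gfap, the intermediate filament of astrocytes (ENSMUSG00000020932.14, chromosome 11, 102887336 to 102900912, minus strand), ran from 197 to 299 FPKM (median 225) in cuprizone BTKi, against 66.0, 73.0, 61.6 and 57.5 FPKM in naive vehicle (log2 difference 1.84, SE 0.13, limma adjusted p = 1.73e-09). Serpina3n, a secreted protease inhibitor of reactive astrocytes (ENSMUSG00000021091.8, chromosome 12, 104406729 to 104414329, plus strand), ran from 29.98 to 46.6 FPKM (median 34.3) in cuprizone BTKi, against 8.51, 9.94, 7.49 and 8.67 FPKM in naive vehicle (log2 difference 1.99, SE 0.17, limma adjusted p = 2.58e-08). In both genes the lowest of the 8 libraries exceeded the highest naive vehicle library. Lcn2, the siderophore-binding lipocalin, was far more variable, from 0.428 to 11.7 FPKM (median 4.27) in cuprizone BTKi, against 0.110, 0.0399, 0.329 and 0.180 FPKM in naive vehicle (log2 difference 2.58, SE 0.69, limma adjusted p = 0.0109). Of 17 general astrocyte genes 5 were higher and 0 lower, where 8.83% of all genes were higher, with a median of 0.12. The glutamate transporter Slc1a3 rose by 0.54, Mlc1 by 0.36, the connexin Gjb6 by 0.32 and the glycolytic Aldoc by 0.29 (adjusted p 3.38e-06, 1.82e-05, 0.00198 and 0.00223). Aqp4, the water channel of astrocyte endfeet, differed by 0.27 (SE 0.10, adjusted p = 0.0867).

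Cholesterol synthesis genes fell. The pathway supplies the sterol that makes up much of the myelin membrane and is switched on by SREBP2. Of 22 listed genes 19 were lower and 0 higher (18 to 20 without any 1 library), with a median of -0.37, and 22 of 22 had a negative difference. In cuprizone vehicle against naive vehicle 17 were lower with a median of -0.28. In the direct limma test between the cuprizone groups 0 of the 22 were called. At an unadjusted p under 0.05, which 8.79% of all genes reached, 10 were lower and 0 higher. Msmo1, a sterol demethylase (ENSMUSG00000031604.10, chromosome 8, 64718139 to 64733792, minus strand), ran from 24.2 to 31.4 FPKM (median 29.8) in cuprizone BTKi, against 45.2, 43.5, 44.4 and 45.9 FPKM in naive vehicle (log2 difference -0.63, SE 0.060, limma adjusted p = 1.54e-07). Hmgcs1, the synthase before the rate-limiting step (ENSMUSG00000093930.2, chromosome 13, 119690379 to 119708260, plus strand), ran from 46.3 to 57.8 FPKM (median 53.03) in cuprizone BTKi, against 78.7, 75.6, 74.1 and 74.1 FPKM in naive vehicle (log2 difference -0.53, SE 0.049, limma adjusted p = 9.68e-08). The isomerase gene Idi1 differed by -0.60 (adjusted p = 2.01e-06) and the SREBP retention factor gene Insig1 by -0.59 (adjusted p = 6.16e-07), both lower in cuprizone BTKi. The changes were small next to those of myelin, but the groups of these 4 genes did not overlap.

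The Hmgcs1 promoter (RefSeq, GRCm38.p6, chr13:119690101-119690400, plus strand, same window) is shown with a match to the sterol regulatory element TCACCCCAC, searched on both strands, in capitals.
Hmgcs1: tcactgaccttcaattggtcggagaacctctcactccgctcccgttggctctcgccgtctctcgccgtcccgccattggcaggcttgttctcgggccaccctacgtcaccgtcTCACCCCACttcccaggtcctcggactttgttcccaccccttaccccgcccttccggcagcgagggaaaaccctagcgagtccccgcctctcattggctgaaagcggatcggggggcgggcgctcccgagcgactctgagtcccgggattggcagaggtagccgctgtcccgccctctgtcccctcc
The match begins 137 bases before the start. It was the 1 match among 19 windows of 16 matched genes of the list (5.26%), against 0.551% of all windows.

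Genes of cholesterol export, LXR targets and lipid droplets split, with 7 of 19 higher and 4 lower (5 and 4 without naive vehicle 2). Over all genes tested 8.83% were higher and 5.65% lower, to be set beside these counts and those of the iron genes. Abca1, the pump that loads cholesterol onto apolipoproteins, ran from 6.77 to 9.15 FPKM (median 7.94) in cuprizone BTKi, against 3.86, 4.11, 3.98 and 3.93 FPKM in naive vehicle (log2 difference 0.92, SE 0.11, limma adjusted p = 2.23e-06). Lpl, the lipoprotein lipase, averaged 10.9 ± 1.65 FPKM in cuprizone BTKi and 5.82 ± 1.07 FPKM in naive vehicle (log2 difference 0.86, SE 0.15, limma adjusted p = 2.71e-04). Ch25h, which makes 25-hydroxycholesterol, differed by 1.08 (adjusted p = 0.0217) and the lipid droplet coat gene Plin2 by 0.53 (adjusted p = 0.0228). The Ch25h call ended without naive vehicle 1, 2 or 4 and the Plin2 call without naive vehicle 2 or 3. Of 9 measurable iron genes 3 were higher and 1 lower: beside Lcn2 and Fth1, the ferritin light chain Ftl1 rose by 0.36 (limma adjusted p = 0.00489), and the ferrireductase Steap3 was higher by 0.25 (adjusted p = 0.0251, and 0.116 without naive vehicle 2). Ferritin genes have processed copies that may share reads.

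Of 14 measurable growth factors 5 were higher and 1 lower (4 and 0 without naive vehicle 2), where 8.83% of all genes were higher and 5.65% lower. Igf1, a survival factor for oligodendrocytes, ran from 1.86 to 3.99 FPKM (median 2.63) in cuprizone BTKi, against 0.798, 1.15, 1.096 and 1.12 FPKM in naive vehicle (log2 difference 1.03, SE 0.20, limma adjusted p = 8.86e-04). Tgfb1 rose by 0.73 (limma adjusted p = 0.00589) and Fgf2, a mitogen of precursors, by 0.43 (limma adjusted p = 3.38e-04). Cntf, a cytokine of astrocytes, was higher by 0.70 (adjusted p = 0.00964, and 0.0781 without naive vehicle 1). In the extracellular matrix list 3 of 23 measurable genes were higher and 1, Adamts4, lower, a share called near that of all genes (14.5%). The macrophage elastase gene Mmp12 averaged 0.717 ± 0.195 FPKM in cuprizone BTKi and 0.0227 ± 0.0188 FPKM in naive vehicle (log2 difference 1.20, SE 0.18, limma adjusted p = 2.98e-05), the protease inhibitor gene Timp1 1.14 ± 0.308 FPKM and 0.261 ± 0.107 FPKM (log2 difference 1.097, SE 0.21, limma adjusted p = 7.30e-04). The fibronectin gene Fn1 was higher by 0.50 (adjusted p = 0.0340), a call that ended without naive vehicle 2, 3 or 4 or cuprizone BTKi 2 or 8. Among 14 measurable proliferation genes only Mcm3, of the replicative helicase, was called (0.33, adjusted p = 0.0274), and not without naive vehicle 2, 3 or 4 or cuprizone BTKi 8. Mki67, under the filter and not tested, lay from 0.252 to 0.483 FPKM (median 0.3598) in cuprizone BTKi and at 0.2998, 0.315, 0.283 and 0.229 FPKM in naive vehicle.

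Rapid-response genes are those that neurons and glia switch on within minutes of a stimulus, before new protein is made. In the direct test of cuprizone BTKi against cuprizone vehicle 11 of 31 were lower and 0 higher, where 0.138% of all genes were lower. Their median there was -0.27. The other 45 lists held 0 to 2 calls each, but the lists were chosen with earlier results of these data known. That contrast is therefore no independent evidence. Against naive vehicle, 10 of the 31 were lower and 4 higher in cuprizone BTKi (8 and 3 without naive vehicle 2). Their median was -0.064, and of all genes tested 5.65% were lower and 8.83% higher. In cuprizone vehicle 3 of the 31 were lower and 9 higher, with a median of 0.12. There 4.82% of all genes were lower and 10.2% higher. Nr4a1, an orphan nuclear receptor (ENSMUSG00000023034.7, chromosome 15, 101254269 to 101274795, plus strand), ran from 26.8 to 40.2 FPKM (median 32.6) in cuprizone BTKi, from 54.5 to 72.2 FPKM (median 62.0) in cuprizone vehicle, and lay at 63.2, 56.0, 57.0 and 57.0 FPKM in naive BTKi and 66.4, 57.0, 68.1 and 53.4 FPKM in naive vehicle. The 8 cuprizone BTKi libraries lay below the 16 others. The gene fell in cuprizone BTKi against naive vehicle (log2 difference -0.90, SE 0.090, limma adjusted p = 2.52e-07), differed by 0.057 in cuprizone vehicle (adjusted p = 0.729), and the direct difference between the cuprizone groups was -0.96 (SE 0.074, adjusted p = 2.40e-08).

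Arc, a synaptic protein of active neurons (ENSMUSG00000022602.14, chromosome 15, 74669083 to 74672570, minus strand), ran from 48.6 to 91.1 FPKM (median 60.6) in cuprizone BTKi, against 123, 106, 122 and 103 FPKM in naive vehicle (log2 difference -0.82, SE 0.13, limma adjusted p = 6.23e-05), and its direct difference from cuprizone vehicle was -0.98 (SE 0.10, adjusted p = 4.90e-06). Junb, a subunit of AP-1 (ENSMUSG00000052837.6, chromosome 8, 84974484 to 84978718, minus strand), ran from 24.3 to 32.8 FPKM (median 27.7) in cuprizone BTKi, against 51.8, 49.8, 52.4 and 40.6 FPKM in naive vehicle (log2 difference -0.79, SE 0.10, limma adjusted p = 3.25e-06), with a direct difference of -0.86 (adjusted p = 6.13e-07). Ier2 followed at -0.88 against naive vehicle and -0.76 against cuprizone vehicle (adjusted p 1.01e-06 and 4.90e-06), and the MAP kinase phosphatase Dusp1 at -0.71 and -0.59 (adjusted p 8.62e-05 and 0.00161). Fos, the partner of the Jun proteins, ran from 9.72 to 16.5 FPKM (median 14.9) in cuprizone BTKi, against 19.1, 20.3, 19.9 and 16.1 FPKM in naive vehicle (log2 difference -0.39, SE 0.10, limma adjusted p = 0.0122), a call that ended without naive vehicle 2 (adjusted p = 0.0505), while its direct difference was -0.54 (adjusted p = 0.00171). The pseudokinase gene Trib1 and the mono-ADP-ribosyltransferase gene Tiparp differed from naive vehicle by -0.36 (adjusted p = 0.00367) and -0.25 (adjusted p = 0.0255, not past the threshold without naive vehicle 2 or 3), and from cuprizone vehicle by -0.51 and -0.41 (adjusted p 1.93e-04 and 0.00122). Csrnp1 differed by -0.36 against naive vehicle (adjusted p = 0.0111, not without naive vehicle 3).

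In Btg2 the difference from naive vehicle passed the test in all 3 other groups. Btg2, an antiproliferative cofactor of mRNA decay and the gene with the smallest p of the comparison (ENSMUSG00000020423.6, chromosome 1, 134075170 to 134079120, minus strand), ran from 4.21 to 5.49 FPKM (median 5.05) in cuprizone BTKi, from 5.84 to 7.76 FPKM (median 6.78) in cuprizone vehicle, and lay at 5.18, 5.28, 5.25 and 5.49 FPKM in naive BTKi and 11.05, 12.5, 14.6 and 11.6 FPKM in naive vehicle. The 4 naive vehicle libraries were the highest of the 24. Its log2 difference from naive vehicle was -1.25 in cuprizone BTKi (SE 0.082, adjusted p = 6.98e-10), -0.82 in cuprizone vehicle (adjusted p = 1.37e-07) and -1.15 in naive BTKi (adjusted p = 1.09e-07). Npas4, a transcription factor of active neurons, differed by -1.32, -0.74 and -0.85 in the same 3 groups (adjusted p 4.33e-06, 0.00274 and 0.0634, so not called in naive BTKi), and the transcript 1700016P03Rik by -1.41, -0.48 and -0.74 (adjusted p 3.13e-06, 0.0603 and 0.118, so not called in cuprizone vehicle or naive BTKi). These 3 comparisons share the 4 naive vehicle libraries, so what sets those libraries apart enters each of them. In naive BTKi against naive vehicle 33 genes were called in all (0.217%), 16 higher (0.105%) and 17 lower (0.112%), and the 2 scalings gave 23 higher and 16 lower, and 22 higher and 7 lower. Of the 31 rapid-response genes 3 were called higher in naive BTKi and 1, Btg2, lower, with a median of 0.057. The 3 were Per1 (0.40, adjusted p = 0.0332), Ier5 (0.49, 0.0417) and Klf10 (0.51, 0.0417). All 3 lie near the threshold, and whether they hold in the alternatives is not given here. The 33 calls of that comparison fell to 3 with its 2 groups fitted alone and to 11 without naive vehicle 2. Maff, a small Maf factor, rose in cuprizone BTKi by 1.08 (limma adjusted p = 9.19e-07) and differed by 0.38 in naive BTKi (adjusted p = 0.247).

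A second set was called in cuprizone vehicle against naive vehicle and not in cuprizone BTKi. Its 6 genes, Dusp6, Dusp5, Plk3, Per1, Kdm6b and Prpf38a, were picked by the smallest p of the direct test. Their direct differences are therefore no separate evidence. The phosphatase genes Dusp6 and Dusp5 differed from naive vehicle by -0.015 and -0.064 in cuprizone BTKi (adjusted p 0.919 and 0.687) and by 0.29 and 0.31 in cuprizone vehicle (0.00374 and 0.0140). The direct difference was -0.31 for Dusp6 (SE 0.056, adjusted p = 0.0109) and -0.37 for Dusp5 (SE 0.070, adjusted p = 0.0172, not past the threshold without cuprizone vehicle 2). For the kinase gene Plk3, the clock gene Per1 and the histone demethylase gene Kdm6b it was -0.24, -0.27 and -0.24 (adjusted p 0.0474, 0.0474 and 0.0489). These 3 calls ended without cuprizone vehicle 2, among other libraries. Prpf38a, a splicing factor gene, was not called in the direct test (-0.21, adjusted p = 0.0564). Otud1, Trim45 and Wnt9a, also called in the direct test, differed there by -0.28, -0.26 and -0.29 (adjusted p 0.0297, 0.0205 and 0.0376). Whether these calls hold on leaving out 1 library is not given here. The 27 direct calls then ran from 14 to 34 in number. Leaving out the 3 cuprizone vehicle libraries with little choroid plexus RNA, a setting chosen after seeing the data, brought the direct test to 11 genes. The adjusted p was then 0.124 for Dusp6, 0.0709 for Dusp1 and 0.124 for Csrnp1.

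**Figure D4:**
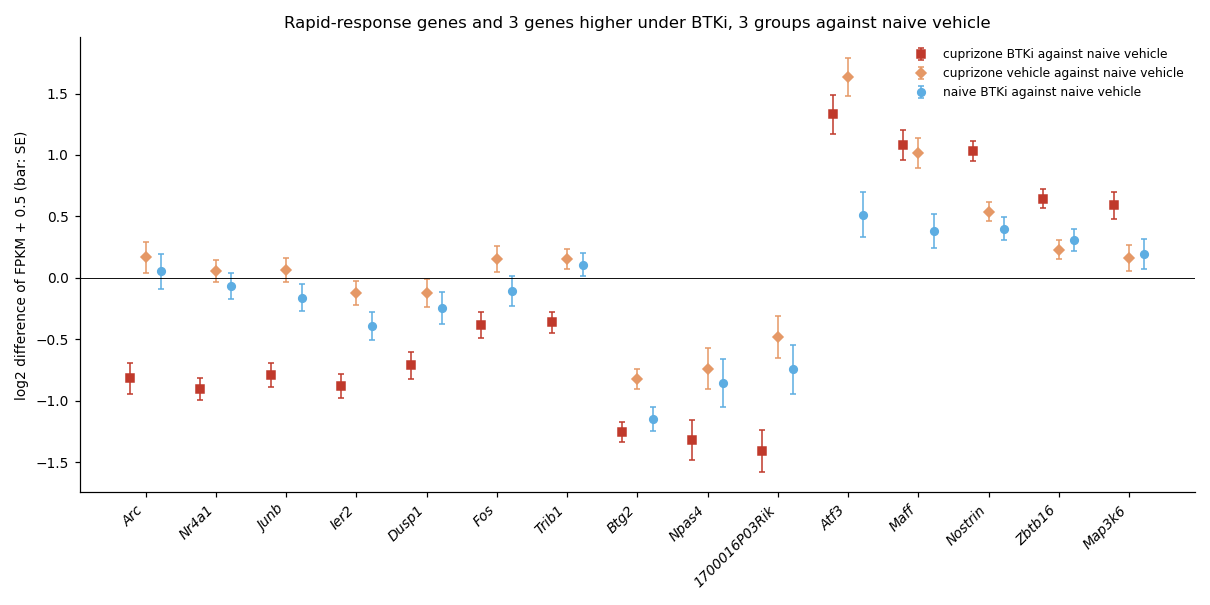
Log2 differences of FPKM + 0.5 from naive vehicle (y axis; bars are SE) for 15 genes in cuprizone BTKi (squares), cuprizone vehicle (diamonds) and naive BTKi (circles), which share the 4 naive vehicle libraries. Arc, Nr4a1, Junb and Ier2 lie at -0.79 to -0.90 in cuprizone BTKi and at -0.12 to 0.17 in cuprizone vehicle, while Btg2 and Npas4 are below 0 in all 3 groups.

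Genes that glucocorticoids induce had 5 of 11 measurable members higher in cuprizone BTKi, where 8.83% of all genes were higher. Their median was 0.20. Zbtb16, a zinc finger factor of that response, ran from 8.99 to 11.7 FPKM (median 10.6) in cuprizone BTKi, against 6.38, 5.72, 6.56 and 7.49 FPKM in naive vehicle (log2 difference 0.65, SE 0.075, limma adjusted p = 1.55e-06), and its direct difference from cuprizone vehicle was 0.41 (SE 0.061, adjusted p = 9.60e-04). The kinase gene Map3k6 ran from 4.34 to 5.21 FPKM (median 4.51) in cuprizone BTKi, against 2.03, 2.46, 3.67 and 3.66 FPKM in naive vehicle (log2 difference 0.59, SE 0.11, limma adjusted p = 3.47e-04), with a direct difference of 0.43 (adjusted p = 0.0411) that did not pass without cuprizone vehicle 1, 2, 3, 4, 5 or 8 or cuprizone BTKi 1, 2, 3, 4, 5, 6, 7 or 8. Fkbp5, the co-chaperone of the glucocorticoid receptor, rose by 0.39 (limma adjusted p = 2.11e-04). Of 16 clock genes 3 were higher and 1 lower (2 and 0 without naive vehicle 2), where 8.83% of all genes were higher and 5.65% lower. Per2, a repressor of the clock, averaged 9.91 ± 1.22 FPKM in cuprizone BTKi and 6.21 ± 0.350 FPKM in naive vehicle (log2 difference 0.63, SE 0.077, limma adjusted p = 3.30e-06), and differed by 0.57 in naive BTKi (adjusted p = 0.00317). Bhlhe40, Cry1 and Npas2 differed by 0.29, 0.22 and -0.20 (adjusted p 0.0328, 0.0255 and 0.0351), and each of the 3 calls ended without naive vehicle 1, and without naive vehicle 3.

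Of 15 endothelial genes 3 were higher and 1 lower, where 8.83% of all genes were higher and 5.65% lower. Nostrin, which traffics endothelial nitric oxide synthase (ENSMUSG00000034738.8, chromosome 2, 69135800 to 69189330, plus strand), ran from 2.56 to 3.84 FPKM (median 3.31) in cuprizone BTKi, from 1.83 to 2.49 FPKM (median 2.17) in cuprizone vehicle, and lay at 1.92, 2.13, 1.81 and 1.82 FPKM in naive BTKi and 1.41, 1.37, 1.28 and 1.28 FPKM in naive vehicle. The cuprizone BTKi libraries lay above the 16 others. It rose against naive vehicle (log2 difference 1.03, SE 0.080, limma adjusted p = 4.13e-09) and against cuprizone vehicle by 0.50 (SE 0.065, adjusted p = 1.93e-04). Vwf, the von Willebrand factor gene, rose by 0.42 (limma adjusted p = 0.00164) and the glucose carrier gene Slc2a1 by 0.31 (limma adjusted p = 8.33e-04). Cldn5, the claudin of tight junctions, was lower (log2 difference -0.27, adjusted p = 0.0264, not without naive vehicle 1 or 3). Of 11 measurable mural cell genes 1 was called, where 14.5% of all genes were. It was the smooth muscle gene Tagln (0.51, limma adjusted p = 6.92e-04), which differed by 0.55 in naive BTKi (limma adjusted p = 0.0412). The naive BTKi call lies near the threshold, in a comparison whose 33 calls fell to 3 with its 2 groups fitted alone. Of 12 genes of fibroblasts and meninges limma called 0 (1 lower at an unadjusted p under 0.05, which 27.1% of all genes reached).

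Of 17 general neuronal markers 1 was called, lower, where 14.5% of all genes were called, and their median was -0.053. That gene was Nefm, a neurofilament chain (-0.18, adjusted p = 0.0462), whose call ended in 15 of 23 alternatives, among them each that left out 1 naive vehicle library. Of 13 hippocampal and cortical markers 1 was called, the deep-layer factor Fezf2 (0.33, adjusted p = 0.0240, and 0.165 without naive vehicle 2). Markers of striatal neurons, which lie next to the tract, were lower: 8 of 11, with a median of -0.78, but 2 of 11 and -0.53 without naive vehicle 2. Their summed level ran from 159 to 398 FPKM (median 279.6) in cuprizone BTKi and from 292 to 801 FPKM (median 423) in naive vehicle. Drd2, the D2 dopamine receptor, ran from 1.56 to 9.67 FPKM (median 5.87) in cuprizone BTKi, against 8.42, 24.6, 11.8 and 6.25 FPKM in naive vehicle (log2 difference -1.07, SE 0.35, limma adjusted p = 0.0426). Without naive vehicle 2 its adjusted p was 0.233. The adjusted p of Adora2a and Rgs9 (0.0145 and 0.02002) was 0.114 and 0.145 without it. The part of striatal tissue in other results was not tested.

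Choroid plexus markers, from the tissue that makes cerebrospinal fluid, summed to 575 to 1639 FPKM (median 1175) in cuprizone BTKi and 1519 to 2351 FPKM (median 2056) in naive vehicle. Of 13 members limma called 0, none with an unadjusted p under 0.05, and their median was -0.68. Ttr, transthyretin, its most abundant product, lay from 381 to 1216 FPKM (median 882) in cuprizone BTKi and at 1114, 1768, 1347 and 1734 FPKM in naive vehicle (log2 difference -0.85, SE 0.85, limma adjusted p = 0.571). Of 14 measurable ependymal and cilia genes 1 was called, where 14.5% of all genes were. It was Spag6l, of the motile axoneme (-0.36, adjusted p = 0.0246, not without naive vehicle 2 or 4). Red blood cell genes summed to 58.5 to 411 FPKM in cuprizone BTKi, with the highest in cuprizone BTKi 3, and to 31.4 to 103 FPKM in naive vehicle, and of 4 measurable limma called 0 (3 higher at an unadjusted p under 0.05). Of 13 mitochondrially encoded genes it called 0 (1 higher at an unadjusted p under 0.05). Beside these counts, 27.1% of all genes tested had an unadjusted p under 0.05 in cuprizone BTKi against naive vehicle.

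Most markers of immune cells from the blood did not reach the filter. Of 9 B cell genes 2 reached the filter and limma called 0. At an unadjusted p under 0.05, which 27.1% of all genes reached, 1 was lower. The 9 summed to 24.4 to 32.5 FPKM in cuprizone BTKi and 28.6 to 37.3 FPKM in naive vehicle. Of 13 T and NK cell genes 3 reached the filter, and Cd3e, a chain of the T cell receptor complex, lay from 0 to 0.213 FPKM (median 0.0624) in cuprizone BTKi and at 0.0648, 0.0356, 0 and 0.0225 FPKM in naive vehicle. Cd4 was called lower (-1.03, adjusted p = 0.0103) but not without naive vehicle 2 (adjusted p = 0.0830), the library with its highest value. The 13 summed to 1.95 to 4.46 FPKM in cuprizone BTKi and 2.62 to 7.55 FPKM in naive vehicle. Ccr2, the receptor of recruited monocytes, lay from 0.0184 to 0.121 FPKM (median 0.0692) in cuprizone BTKi and at 0.0918, 0.0220, 0.0723 and 0.0779 FPKM in naive vehicle. Of 4 measurable monocyte and border macrophage genes (14 listed) 2 were higher, Mrc1 (0.35, adjusted p = 0.0203) and Fn1, and 0 without naive vehicle 2. The 14 summed to 14.9 to 21.8 FPKM in cuprizone BTKi and 8.75 to 15.2 FPKM in naive vehicle. Ly6g, which defines neutrophils, was listed at 0 in all libraries of both groups, and S100a8 lay from 0 to 0.268 FPKM (median 0.0991) in cuprizone BTKi and at 0.276, 0.408, 0.138 and 0.136 FPKM in naive vehicle. Csf3r, the G-CSF receptor, was the 1 neutrophil-list gene that reached the filter, and it rose (log2 difference 1.36, SE 0.19, limma adjusted p = 1.98e-05). It is also expressed by microglia. The part of these cells in the microglial and interferon results was not tested.

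**Figure D5:**
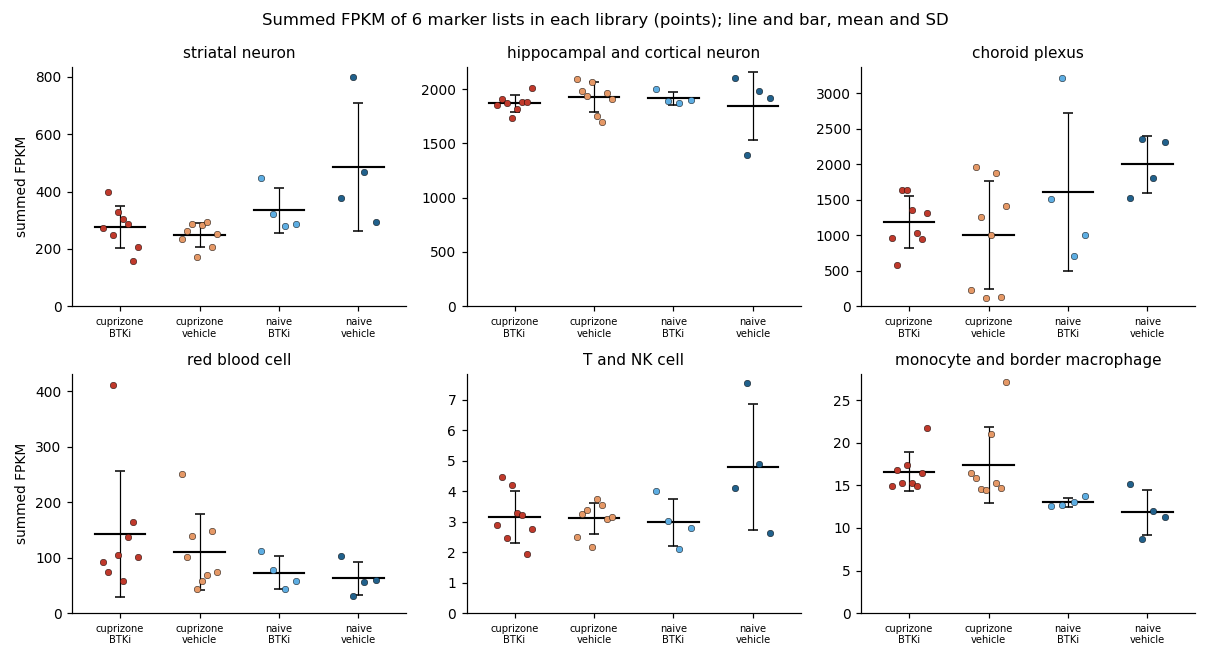
Summed FPKM of the markers of 6 cell types (panels; linear y axes from 0) in each library by group, with mean and SD. The striatal sum is highest in naive vehicle 2 (801 FPKM), 3 cuprizone vehicle libraries have little choroid plexus RNA, and the T and NK cell sum stays under 8 FPKM in all libraries.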

How the data were processed

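RNA of the corpus callosum was purified with a Qiagen RNeasy Micro kit and poly(A) RNA was made into TruSeq stranded libraries, per the labels' protocols. The authors deposited 1 table of FPKM for 54446 gene identifiers in 24 libraries; the aligner, the counting tool and the genome build are not named in the sources used. Gene identifiers were matched to GENCODE M21 (GRCm38), in which 53229 were found with the same version; coordinates are given for those. Groups were taken from the labels. Depth was estimated from the spacing of the low values of 4225 genes: 90.8% of 53907 values lay within 0.1 of a whole fragment, against 20% by chance.

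FPKM are not counts, so log2(FPKM + 0.5) was fitted with limma 3.58.1 (R 4.3.3) in 1 model with a mean for each of the 4 groups, with an expression trend in the variance, on the 15216 genes with a mean of at least 0.5 FPKM, and p-values were adjusted by the Benjamini-Hochberg method over these genes. A fold on this scale understates the change of low genes. Library measures were compared by exact permutation over 495 splits, two-sided. Replicate pairs differed by an SD of 0.188 to 0.319 on the log2 scale (68 pairs). Libraries were treated as unpaired.

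The members and the 46 gene lists were chosen with earlier results of these data known. Some genes, among them Cxcl10, Lcn2, Itgax, Ctss and Atf3, belong to more than 1 list, so the list counts are not independent. Named genes are the 12 largest differences each way without overlap, up to 4 called members of a list and a set of marker genes. The genes called between the cuprizone groups (up to 20) were added, and 6 with a call in 1 cuprizone group each. The latter were picked by the smallest p of the direct test between the cuprizone groups. The steps were tested on simulated data. Alternatives were other offsets, filters, scalings, variance models and samples. Tables and figures were made with Python 3.11.15, pandas 2.3.3, numpy 2.4.6 and matplotlib 3.10.9. Results for a few genes are not reported here.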

Additional observations from a re-analysis of the deposited data

Results flagged for a closer look

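In 354 groups of 4 or 8 libraries of the named genes, 22 held a library far from the others. Chance flags about 1 in 20, so this count lies near chance and is not read as a result. Cuprizone BTKi 8 was far above its group in Fcgr2b (10.3 FPKM), Fcrls (33.4 FPKM), Fn1 (18.1 FPKM), Lat2 (5.56 FPKM), Mlc1 (70.7 FPKM) and Spp1 (58.0 FPKM). In the same group Nefm was far up in library 1 (87.4 FPKM), Map3k6 in library 2 (5.21 FPKM) and Kdm6b in library 4 (6.43 FPKM), and Fos was far down in library 4 (9.72 FPKM). Naive vehicle 2 was far above its group in the oligodendrocyte genes Enpp6 (5.54 FPKM), Ppp1r14a (23.1 FPKM), Prr18 (37.8 FPKM) and Serpinb1a (12.3 FPKM). Naive vehicle 1 was far up in Bax (27.7 FPKM) and Idi1 (20.1 FPKM) and far down in Igf1 (0.798 FPKM). Naive vehicle 3 was far up in Ch25h (0.496 FPKM), Dusp6 (24.96 FPKM) and Tagln (3.79 FPKM) and far down in Hmox1 (2.18 FPKM), and naive vehicle 4 was far down in Btk (0.272 FPKM).

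All genes of this paragraph but Per1 and Kdm6b met the rule that names genes called by the direct limma test. Arc, Nr4a1, Junb and Fos also belonged to the set of marker genes. Btg2, Nostrin, Map3k6 and Zbtb16 were also named from their lists. Per1 and Kdm6b were picked by their small p in the same test. The count of these genes therefore follows from the naming and is no separate result. By that test, the change against naive vehicle differed between cuprizone BTKi and cuprizone vehicle for 22 of the named genes. It was lower in cuprizone BTKi for Arc (log2 difference -0.98), Nr4a1 (-0.96), 1700016P03Rik (-0.92), Junb (-0.86), Ier2 (-0.76), Dusp1 (-0.59), Fos (-0.54), Trib1 (-0.51), Csrnp1 (-0.45), Btg2 (-0.43), Tiparp (-0.41), Dusp5 (-0.37), Dusp6 (-0.31), Wnt9a (-0.29), Otud1 (-0.28), Per1 (-0.27), Trim45 (-0.26), Plk3 (-0.24) and Kdm6b (-0.24). It was higher for Nostrin (0.50), Map3k6 (0.43) and Zbtb16 (0.41). The calls of Dusp5, Map3k6, Per1, Plk3 and Kdm6b ended without cuprizone vehicle 2, as described above.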

How the results depend on the processing

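The count of genes called in cuprizone BTKi against naive vehicle stayed within 1.5 times of 2204 in all alternatives, from 1784 without naive vehicle 2 to 2302 without cuprizone BTKi 4 among those that left out 1 library. Scaling moved its split: 1251 higher and 1003 lower with median ratio scaling, 1242 and 1052 with quantile normalization. In cuprizone vehicle against naive vehicle the splits were 1229 and 978, and 1205 and 1072. Between the cuprizone groups they were 6 and 15, and 8 and 13. In naive BTKi against naive vehicle they were 23 and 16, and 22 and 7. In cuprizone BTKi against naive vehicle no list count moved by more than 1 member under either scaling.

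Between the cuprizone groups 27 genes became 16 without a filter, 11 without 3 libraries of cuprizone vehicle that held little choroid plexus RNA (chosen after seeing the data), and 14 to 34 on leaving out 1 library. In naive BTKi against naive vehicle 33 became 21 without a filter, 3 with those 2 groups fitted alone, 19 without the same 3 libraries, and 7 to 28 on leaving out 1 library. With a replicate block the counts were 1714 in cuprizone BTKi and 1859 in cuprizone vehicle against naive vehicle, 26 between the cuprizone groups and 27 in naive BTKi. Deviations of same-numbered libraries correlated between -0.065 and 0.087 in cuprizone BTKi against naive vehicle, and the numbers were not taken as pairs.

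Values that changed sign were of results with no call. The difference in genes detected became -22.8 at 0.1 FPKM, and that in percent mitochondrial ran from -0.249 to 0.0646 on leaving out 1 library. On leaving out 1 library, the log2 difference ran from -0.099 to 0.031 in Chac1, -0.034 to 0.015 in Dusp6 and -0.114 to 0.029 in Kdm6b, and Dusp5 was 0.018 with a replicate block. The cause of these changes was not tested. Of the values of single named genes over the alternatives, 4388 kept their direction and side of the threshold, 277 lost the call and 8 gained it. The limits are 4 naive vehicle libraries, 1 of them apart in myelin and striatal genes, values under about 0.5 FPKM that rest on few fragments, and FPKM in place of counts.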
